A study of Mus musculus with 2 samples.

Results

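The mRNA of 39 genes of glucose uptake and glycolysis was described in mouse cardiomyocytes (MCMs) with and without knockdown of *Ppp2r5d*, the gene of a regulatory B subunit of protein phosphatase 2A. The genes were chosen by their function: glucose transporters, the enzymes from hexokinase to pyruvate kinase with their isozymes, and the proteins that handle lactate and pyruvate. No measured value entered the rule. A gene was taken where the array annotation gives its symbol to a probe that is not a control, and all 39 were found among 37074 gene names. Both arrays had 37 of them well above background, while *Slc2a4* was so on the siRNA-NC array alone and *Pklr* on neither.

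Glucose enters a cell through facilitative transporters and is broken down by a chain of cytosolic enzymes to pyruvate, with a small yield of ATP and NADH. Pyruvate is either reduced to lactate and exported by monocarboxylate transporters, or oxidised in mitochondria by the pyruvate dehydrogenase complex, which its kinases switch off and its phosphatases switch on. The adult heart burns mostly fatty acids, takes up glucose through the insulin-responsive transporter GLUT4, and uses more glycolysis before birth and under stress. Most steps have several isozymes, some found in nearly all cells and others typical of muscle, brain or liver.

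The MCMs were purchased and passaged cells, grown with 2% fetal bovine serum and transfected either with an siRNA against *Ppp2r5d* (siRNA-*Ppp2r5d*) or with a negative control siRNA (siRNA-NC). Both cultures spent the last night before harvest in glucose-free medium, and total RNA was taken 64 hours after transfection. There was no culture kept in glucose, so all values describe the effect of the siRNA under glucose withdrawal. RNA of each culture was labelled with Cy3 and hybridised to 1 one-colour Agilent array, with both arrays on the same slide and in the same scan. With 1 array per condition no difference has a replicate check, no test was run, and higher or lower below means a difference between these 2 arrays.

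In the siRNA-NC sample 59.9% of spots were well above background, in the siRNA-*Ppp2r5d* sample 59.3%, and none was saturated. The targeted gene had an intensity of 4701 with siRNA-NC and 676 with siRNA-*Ppp2r5d*, or 6.08-fold lower after scaling, from 1 probe. Intensities below are the processed signals of each array before scaling. Since the 75th percentile was 593 with siRNA-NC and 519 with siRNA-*Ppp2r5d*, a probe with equal intensities has a log2 fold change of 0.19 after scaling to it. Of 12 cardiomyocyte markers, 5 were well above background on both arrays, among them *Tnnt2* (858 and 1006) and *Actc1* (6443 and 5268). *Myh6* and *Ryr2* were so on the siRNA-*Ppp2r5d* array alone and at most 19.3. *Actn2*, *Myl2*, *Myl7*, *Pln* and *Ckm* were on neither, so much of the adult contractile programme was not detectable in these cells. Of 8 fibroblast markers 6 were measured, from -0.31 for *Col1a2* to 0.63 for *Pdgfra*, with 4 of them below 0. The 4 probes of *Col1a2* ran from -0.48 to 0.06, the latter being its brightest (147519 and 134481). With the probe of highest signal 5 of the 6 fibroblast markers lay above 0 (median 0.13), and with RefSeq probes alone also 5 (median 0.15). All 4 smooth muscle markers were measured. Their log2 fold changes were 2.41 for *Cnn1*, 0.85 for *Tagln*, -0.02 for *Acta2* and -0.38 for *Myh11*. Of the others, 1 of 5 endothelial and 3 of 4 immune cell markers were measured on both arrays. The endothelial marker was *Pecam1*, at -0.23. *Tek* was well above background on the siRNA-*Ppp2r5d* array alone (8.39 and 18.7) and is part of the endothelial sum below. *Cdh5* and *Emcn* were at background. The immune cell markers had log2 fold changes of -0.77 (*Cd68*), 0.13 (*Ptprc*) and 0.53 (*Cd3e*). The 5 measured cardiomyocyte markers had a median of 0.42, with 3 above 0 and 2 below. The summed intensity of the list, over the brightest probe of each gene, was 7507 and 6509 for cardiomyocyte markers, 302401 and 282516 for fibroblast, 141925 and 129727 for smooth muscle, 78.9 and 72.4 for endothelial and 2106 and 1529 for immune cell markers. After scaling, the log2 ratios of these sums were -0.01, 0.09, 0.06, 0.07 and -0.27. The part of these differences in the results below was not tested, and in a bulk sample fewer cells of a type and less RNA per cell cannot be told apart.

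Glycolytic mRNAs were, as a group, close to the level of the control sample, with a few larger exceptions in both directions. With siRNA-*Ppp2r5d* 22 of the 37 (59.5%) lay above 0 and 15 below, where 54.2% of all 20350 measured genes lay above 0. Their median log2 fold change was 0.08 against 0.03 for all genes, and the range ran from -1.24 to 0.78. No gene of the group was at least 2-fold higher, a threshold passed by 0.885% of all genes, and 2 genes, *Slc2a3* and *Ldhb*, were at least 2-fold lower, which 1.06% of all genes were. At 1.5-fold, *Slc2a8* was added on the higher side, which 3.37% of all genes reached, and no further gene on the lower side, which 4.63% reached. The scanner software's own error of a log2 ratio had a median of 0.20 over the probes of these genes. By this measure, 9 genes were higher and 7 lower by more than the error, and the other 21 were within it. The same count over all genes is not given here, so these numbers do not set the group apart. Scaling to spike-in probes in place of the 75th percentile lowered the log2 fold change of each gene by 0.18, so that 9 of the 22 higher genes lie below 0 on that scale.

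**Figure D1:**
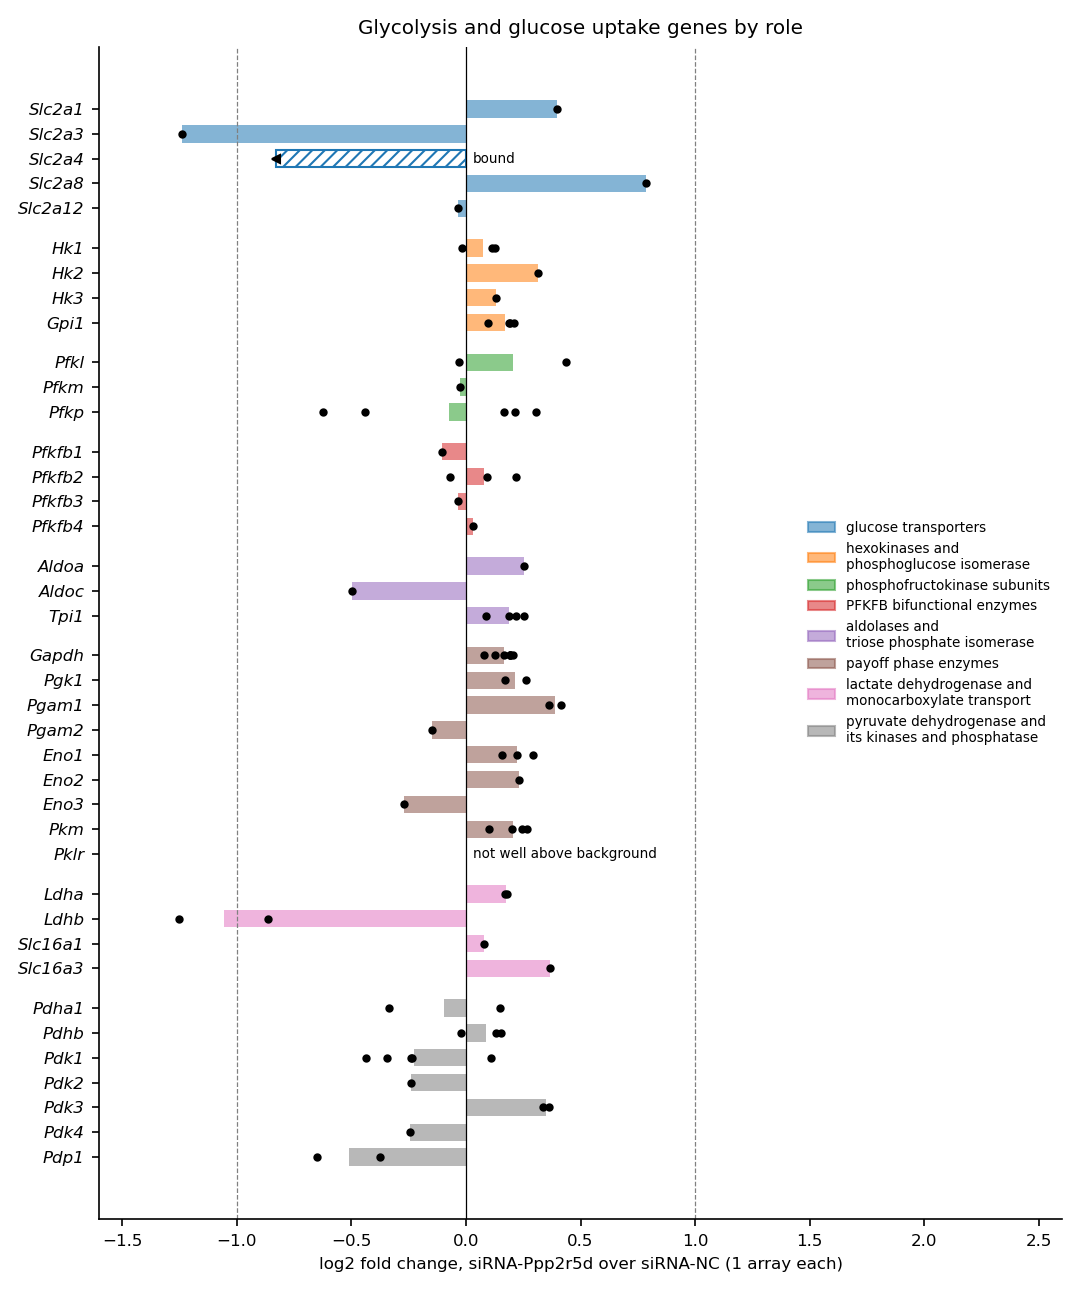
Log2 fold change of each gene, siRNA-*Ppp2r5d* over siRNA-NC, on the x axis, with the 39 genes grouped by role on the y axis. Bars are the gene's value and dots its measured probes (1 array per condition), the hatched bar is a bound and dashed lines mark 2-fold. *Slc2a3* and *Ldhb* pass the line at -1, and *Slc2a8* has the longest bar to the right, at 0.78.

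The glucose transporters held the extremes of the group. *Slc2a3*, the gene of the high-affinity transporter GLUT3 known mainly from neurons, had an intensity of 204 with siRNA-NC and 75.5 with siRNA-*Ppp2r5d*, 2.36-fold lower, with a log2 fold change of -1.24 and a scanner error of 0.21. This rests on 1 of its 2 probes. The other crosses an exon junction at chr6:122681586-122682419 on the minus strand of mm9, from base 1392 of the transcript, and was not well above background on either array (3.06 and 2.74). Its sequence is shown because the silent probe leaves the value of *Slc2a3* to a single spot, and no base is marked.

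*Slc2a3* junction probe: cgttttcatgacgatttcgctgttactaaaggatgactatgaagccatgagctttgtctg

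In contrast, *Slc2a1*, the gene of the widely expressed transporter GLUT1, was higher, with 13319 and 15323 and a log2 fold change of 0.40. *Slc2a8*, which encodes the intracellular transporter GLUT8, was at 87.9 and 132, a log2 fold change of 0.78 with a scanner error of 0.21. *Slc2a4*, the gene of the insulin-responsive GLUT4 of muscle and fat, was well above background with siRNA-NC only (27.4 against 13.1), and was thus at least 1.78-fold lower, from 1 of 2 probes. *Slc2a12*, which encodes GLUT12, was at 1401 and 1195, a log2 fold change of -0.04. So GLUT3 and GLUT4 mRNA lay on the lower side and GLUT1 and GLUT8 on the higher side. GLUT1 and GLUT8 stayed above 0 under spike-in scaling, which lowers every gene and could not turn GLUT3 or GLUT4. The bound of *Slc2a4* was -0.07 after normexp background correction, and a stricter filter on dim probes left it without a value. *Slc2a3* was at -0.60 with no filter on dim probes. Among transporters outside the group, *Slc2a13* of the inositol transporter HMIT was lower (4686 and 2670, -0.62), while *Slc2a6* (197 and 263, 0.61) and *Slc2a9* of the urate transporter (52.6 and 73.9, 0.68) were higher.

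The first steps of glycolysis differed little. All 4 genes of hexokinase and glucose phosphate isomerase were above 0, with a median of 0.15, and 3 of them lay below 0 under spike-in scaling. *Hk2*, the insulin-regulated hexokinase of muscle, was the highest, with 4174 and 4544 and a log2 fold change of 0.32. *Hk1*, the hexokinase of most tissues, had bright probes at 17660 and 21592 with siRNA-NC and 16863 and 20417 with siRNA-*Ppp2r5d*, and a log2 fold change of 0.07 over 3 probes. *Hk3* was close to background (19.5 and 18.7, 0.13). The 4 probes of *Gpi1*, the isomerase, gave log2 fold changes from 0.09 to 0.21.

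Phosphofructokinase, the main regulated step, showed no common direction. *Pfkm*, the muscle subunit, was at 4552 and 3909 (-0.03). *Pfkl*, the liver subunit, had a log2 fold change of 0.20 from a pair of probes that disagreed, one at 0.44 and one at -0.03. *Pfkp*, the platelet subunit, averaged -0.08 over 5 probes that lay on both sides of 0. Its 3 brightest were at 0.16, 0.21 and 0.31 and its 2 dimmest, with intensities of at most 68.8, at -0.44 and -0.62. With probes of RefSeq mRNAs alone, *Pfkp* was at 0.26. The 4 PFKFB genes, whose enzymes make and remove the phosphofructokinase activator fructose 2,6-bisphosphate, lay between -0.10 for *Pfkfb1* and 0.08 for *Pfkfb2*. *Pfkfb3*, the isoform induced by hypoxia in many cells, was at 1221 and 1042 (-0.04), and *Pfkfb4* at 1261 and 1125 (0.03).

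**Figure D2:**
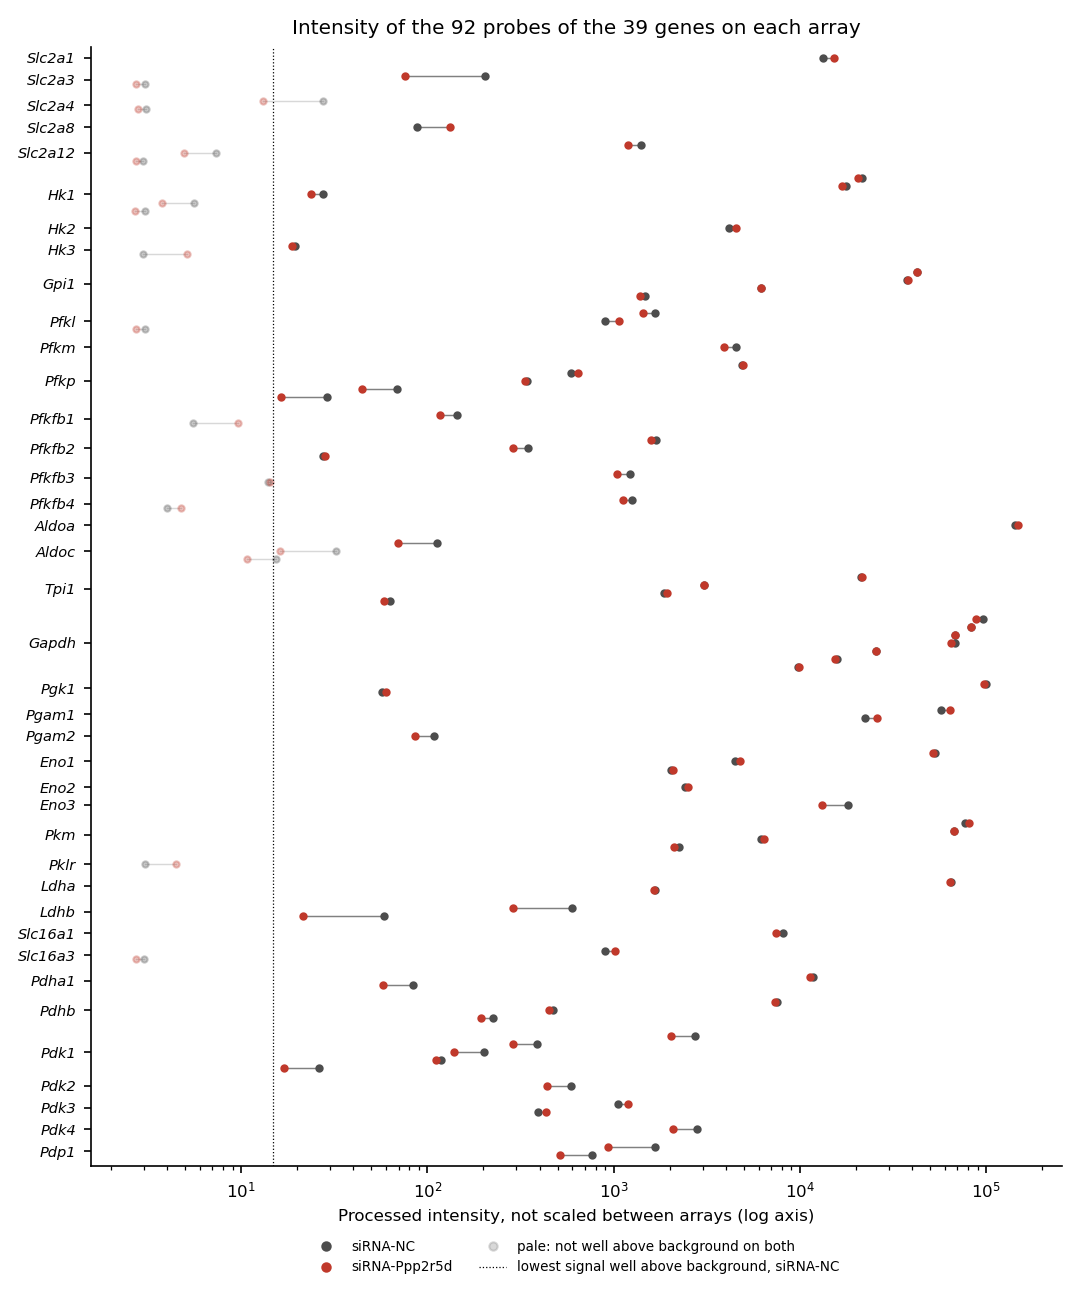
Processed intensity of each of the 92 probes on the siRNA-NC array (grey) and the siRNA-*Ppp2r5d* array (red), before scaling, on a logarithmic x axis, with the genes on the y axis and 1 line per probe. Pale points were near background on at least 1 array, and the dotted line is the lowest signal well above background with siRNA-NC, 14.9. Among the points that are not pale, the widest gaps to the left are those of *Slc2a3* (204 and 75.5) and *Ldhb* (600 and 289, 58.2 and 21.4).

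The aldolases went opposite ways. *Aldoa*, the muscle and general isozyme, was at 141829 and 147794, a log2 fold change of 0.25. *Aldoc*, the brain isozyme, was lower by a log2 fold change of -0.50, and this could be read on repeated spots. The array carries a probe for it 10 times, with intensities from 103 to 120 and a median of 112 with siRNA-NC, and from 60.04 to 77.6 with a median of 72.0 with siRNA-*Ppp2r5d*. After scaling, the log2 fold change of these 10 spots ran from -0.77 to -0.22, with an SD of 0.16. A further probe of *Aldoc*, also in 10 spots, ranged from 21.0 to 38.7 and from 10.73 to 24.3. With siRNA-*Ppp2r5d* only 5 of 10 spots were well above background, so this probe did not enter the gene's value. Its log2 fold change had a mean of -0.82 over the 10 spots, with an SD of 0.37 and a range from -1.56 to -0.48. *Tpi1*, which interconverts the triose phosphates, was above 0 in all 4 probes (0.09 to 0.25). Spots of an array share 1 RNA sample, so their spread does not stand for that between cultures.

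**Figure D3:**
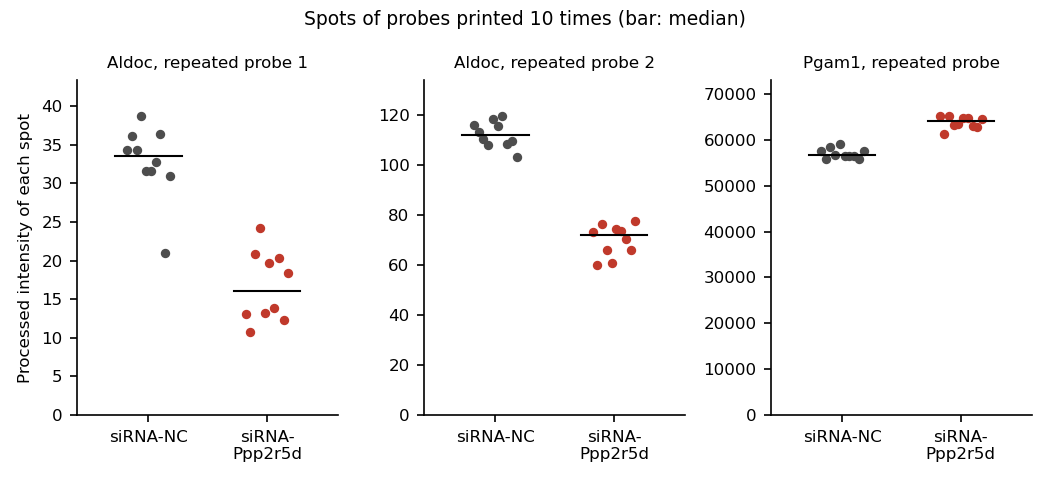
Processed intensity (y axis, from 0) of each of the 10 spots of the repeated probes of *Aldoc* and *Pgam1* on each array, with bars at the median. The red points of *Aldoc* lie below the grey ones for the brighter probe (60.04 to 77.6 against 103 to 120), and those of *Pgam1* lie above (61193 to 65213 against 55855 to 59187). These intensities are before scaling, and the share of other repeated probes that part in this way is not given.

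The payoff phase, in which ATP and NADH are formed, was higher in 6 of 8 measured genes, with a median of 0.21. Under spike-in scaling 5 were above 0 and the median was 0.03. *Pgam1*, the widely expressed phosphoglycerate mutase, stood highest, with a log2 fold change of 0.39 over its probes. Its repeated probe went from 55855 to 59187 with siRNA-NC and from 61193 to 65213 with siRNA-*Ppp2r5d*, with an SD of the log2 ratio of 0.03, and its other probe was at 22243 and 25946. *Pgam2*, the muscle isozyme, was at 108 and 85.7 (-0.15). *Gapdh* had 7 probes between 0.08 and 0.21 and a value of 0.17, which was 0.01 after quantile normalization and -0.02 under spike-in scaling, so the direction of this common reference gene depended on the scale. *Pgk1* was at 0.22, *Pkm* at 0.20 over 4 probes, and *Pklr*, the pyruvate kinase of liver and red cells, was at background (3.04 and 4.47). Among enolases, *Eno1* (0.22 over 3 probes) and *Eno2*, the neuronal isozyme (2422 and 2491, 0.23), were higher. *Eno3*, the muscle enolase, was lower, with 18121 and 13137 and a log2 fold change of -0.27.

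Bright probes as a whole tended to values above 0, and many glycolytic mRNAs are bright. In the brightest 25% of genes 72.5% lay above 0, with a median of 0.11, and the 16 glycolytic genes in it had a median of 0.19, with 13 above 0. *Aldoa*, *Gapdh* and *Pgam1* were among the brightest 5% of genes, whose median was 0.18. Against that level *Gapdh*, at 0.17, was at the median, and *Aldoa* and *Pgam1* were above it. In the next 25% by brightness 6 of 11 glycolytic genes lay above 0 (51.1% of all genes), and in the 25% below that 2 of 9 (44.0% of all genes). After cyclic loess, which removes a trend of the ratio with intensity, the log2 fold change was 0.25 for *Pgam1*, 0.06 for *Aldoa* and 0.02 for *Gapdh*. It was 0.29 for *Slc2a1*, 0.25 for *Hk2* and -0.38 for *Eno3*.

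**Figure D4:**
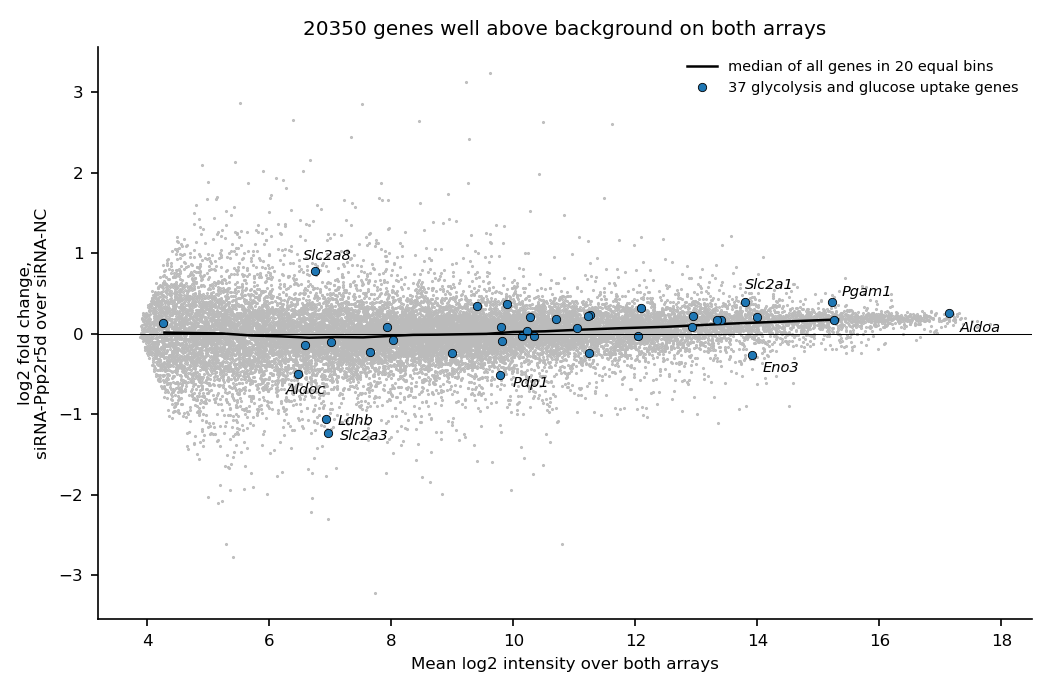
Log2 fold change (y axis) against the mean log2 intensity over both arrays (x axis) for 20350 genes well above background on both arrays (grey), with the 37 glycolysis and glucose uptake genes in blue. The black line, the median of all genes in bins of equal size, climbs above 0 on the right, and *Pgam1* and *Slc2a1* lie above it while *Eno3* lies below 0.

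Lactate dehydrogenase gave a wide contrast between isozymes. *Ldha*, whose subunit favours lactate formation, was at 64536 and 63944 for its bright probe and 1668 and 1641 for the other, with a log2 fold change of 0.17. *Ldhb*, whose subunit predominates in the heart and favours the use of lactate, was 2.08-fold lower, with a log2 fold change of -1.06. Both of its probes were lower: one went from 600 to 289 (-0.86) and one from 58.2 to 21.4 (-1.25). The dimmer probe crosses an exon junction at chr6:142444206-142447028 on the minus strand of mm9, from base 528 of the transcript. It thus matches spliced mRNA over its full length, but whether its signal comes from that alone was not tested. Its sequence is given because it crosses a junction, with no base marked.

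*Ldhb* junction probe: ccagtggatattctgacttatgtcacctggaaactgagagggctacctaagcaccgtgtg

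Of the monocarboxylate transporters, *Slc16a3* of MCT4, the lactate exporter of glycolytic cells, was at 898 and 1013 (0.37), and *Slc16a1* of MCT1 at 8078 and 7468 (0.08, and -0.01 after cyclic loess). *Bsg*, which encodes their chaperone basigin and was not in the group, was at 0.17.

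More genes of pyruvate dehydrogenase control were lower than higher: 5 of 7 were below 0, with a median of -0.23, where 54.2% of all measured genes lay above 0. Among the scalings tried the median of the 7 stayed below 0, from -0.41 with spike-in probes to -0.11 after normexp correction. The count below 0 was less stable. It was 6 of 7 under spike-in scaling. With RefSeq probes alone, with only the brightest probe per gene, or with normexp, it was 4 of 7, as *Pdha1* then lay above 0. *Pdp1*, the phosphatase subunit that reactivates the complex, was the lowest, with 1665 and 929 on one probe, 763 and 515 on the other, and a log2 fold change of -0.51. Of the 4 kinases that inactivate the complex, *Pdk1* was at -0.23, with 4 of 5 probes lower and its brightest at 2746 and 2042. *Pdk2* was at 589 and 437 (-0.24). *Pdk4*, the kinase of the fasted heart, was at 2818 and 2078 (-0.25). *Pdk3* was higher, with 1061 and 1195 and 393 and 433 on its probes (0.35), and it kept that side in all 11 alternatives. Subunit genes of the complex were near 0: *Pdhb* at 0.09, and *Pdha1* at -0.09, from a bright probe at 0.15 and a dim one at -0.34. Outside the group, *Dlat* (0.18), *Dld* (0.07), *Pdhx* (-0.05), *Pdp2* (0.13) and *Pdpr* (-0.16) of the same complex, and the carrier genes *Mpc1* (-0.11) and *Mpc2* (-0.10), were also within 0.20 of 0. *Pcx*, which carboxylates pyruvate, was higher (10973 and 12694, 0.40).

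A shift equal for all genes cancels in differences within isozyme families, but a trend of the ratio with intensity does not. *Aldoa*, *Pgam1* and *Ldha* are bright, and *Aldoc*, *Pgam2* and *Ldhb* are dim. After cyclic loess *Aldoa* and *Aldoc* were at 0.06 and -0.46, *Pgam1* and *Pgam2* at 0.25 and -0.11, and *Ldha* and *Ldhb* at 0.08 and -1.03. *Eno2* and *Eno3* were at 0.19 and -0.38. The gaps of *Slc2a8* over *Slc2a3* and *Pdk3* over *Pdk4* were widest after cyclic loess, at 2.02 and 0.64. In 10 families with several measured genes, the gap between the highest and the lowest log2 fold change exceeded its scanner error in 6. These families were compared after their values were seen. The highest and lowest genes were picked by these same values, so each gap is above 0 by construction. The same count over other gene families is not given here. The gap was 2.02 between *Slc2a8* and *Slc2a3*, 1.23 between *Ldha* and *Ldhb* (error 0.32), 0.75 between *Aldoa* and *Aldoc* (error 0.30), 0.60 between *Pdk3* and *Pdk4*, 0.53 between *Pgam1* and *Pgam2* and 0.50 between *Eno2* and *Eno3*. In all 11 alternatives these 6 gaps kept their sign. Scaling to spike-in probes or to the median of detected probes shifts all genes alike and cannot change a gap. The lowest gap between *Ldha* and *Ldhb* was 0.70, after normexp correction, and that between *Pgam1* and *Pgam2* 0.33, with the authors' log2 values. The gap was within its error for *Slc16a3* and *Slc16a1* (0.29), *Pfkl* and *Pfkp* (0.28), *Hk2* and *Hk1* (0.24) and *Pfkfb2* and *Pfkfb1* (0.18). Of these, the gap of *Pfkl* over *Pfkp* was -0.24 with the probe of highest signal, and that of *Pfkfb2* over *Pfkfb1* was -0.37 with no filter on dim probes.

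**Figure D5:**
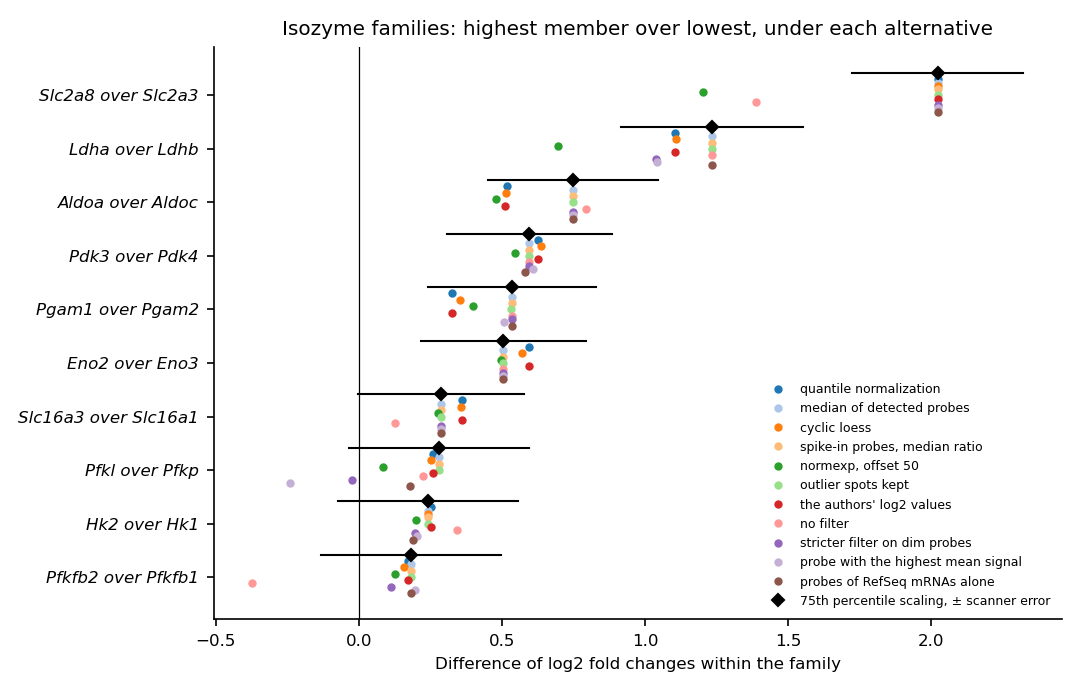
Difference of log2 fold changes between the highest and lowest gene of each of 10 isozyme families (x axis), with 1 row per family on the y axis. Diamonds with bars are the values with 75th percentile scaling and the scanner error, and coloured points the 11 alternatives. The upper 6 families stay to the right of 0 at each point, while *Pfkl* over *Pfkp* and *Pfkfb2* over *Pfkfb1* have points on both sides.

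The promoters of *Slc2a1*, *Ldha* and *Ldhb* are shown as examples, chosen after the values were seen: the lactate dehydrogenase pair, and the main transporter gene of most cells. Each is the 250 bases before the transcription start in RefSeq on GRCm38.p6, at chr4:119108495-119108744 (plus strand), chr7:46845554-46845803 (plus strand, the first of 2 starts) and chr6:142507958-142508207 (minus strand). Capitals mark, on either strand, ACGTG and GCGTG, the core letters read by hypoxia-inducible factors, and CACGTG, the E-box read by MYC, which overlaps ACGTG.

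*Slc2a1* promoter: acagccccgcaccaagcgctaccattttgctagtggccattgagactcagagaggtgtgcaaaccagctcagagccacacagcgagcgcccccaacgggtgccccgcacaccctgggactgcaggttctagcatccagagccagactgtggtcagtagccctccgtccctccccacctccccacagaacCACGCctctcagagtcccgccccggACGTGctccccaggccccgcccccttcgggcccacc
*Ldha* promoter: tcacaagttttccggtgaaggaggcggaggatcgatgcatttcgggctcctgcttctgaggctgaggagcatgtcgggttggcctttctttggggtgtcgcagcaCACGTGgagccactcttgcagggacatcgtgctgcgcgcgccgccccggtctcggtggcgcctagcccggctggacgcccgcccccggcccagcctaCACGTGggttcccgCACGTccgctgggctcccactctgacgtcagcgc
*Ldhb* promoter: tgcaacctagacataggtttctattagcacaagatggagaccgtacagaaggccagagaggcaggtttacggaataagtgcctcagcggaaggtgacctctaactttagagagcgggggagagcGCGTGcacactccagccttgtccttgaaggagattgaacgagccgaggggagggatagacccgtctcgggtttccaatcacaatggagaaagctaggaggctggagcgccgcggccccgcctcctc

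The window of *Ldha* held 5 matches to ACGTG, counted over both strands, and that of *Ldhb* held none. Promoters were found for 36 of the 39 genes, all but *Slc2a3*, *Slc2a4* and *Pdp1*. ACGTG stood in at least 1 window of 16 of these genes (44.4%) and in 18.5% of all genes with an entry, GCGTG in 23 (63.9%) and 30.9%, and CACGTG in 6 (16.7%) and 6.86%. The shares of all genes cover 27025 genes, many of them not measured, so they are not a matched background. Among measured genes with an entry, 2632 had ACGTG and 8571 did not. The counts were 5233 and 5970 for GCGTG, and 1042 and 10161 for CACGTG. A gene with several windows also has more chances of a match. The 36 genes had 56 windows, and the 27025 genes had 32851. Enrichment of these letters was not tested. Of the 16 genes with ACGTG, 13 were higher, with a median log2 fold change of 0.19. Of the 19 measured genes without it, 9 were higher, with a median of -0.04. The other letters ran the opposite way: 13 of 23 genes with GCGTG were higher (median 0.07) and 9 of 12 without it (median 0.20), and 3 of 6 with CACGTG (median 0.03) and 19 of 29 without it (median 0.17). Over all genes measured with an entry, the median was 0.02 with ACGTG and 0.02 without. The windows with ACGTG in the glycolytic genes were richer in G and C (63.4% against 55.6%). The letters were searched after the values were seen, and a match is a description of sequence and not of binding.

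Of the factors that act on glycolytic genes, *Hif1a*, *Arnt* and *Myc* were near the control level, while the whole list ran from -0.70 to 0.61. *Hif1a* was at 16086 and 16361 for its brightest probe (0.01 over 3), *Arnt* at -0.03, *Myc* at 10429 and 9119 for its brightest (-0.05), and *Mlxipl* of ChREBP at 0.15. *Txnip*, whose protein restrains glucose uptake and whose mRNA follows glucose through ChREBP, was at -0.43 from a pair of probes that differed. One was at -0.69, and the brighter (744 and 574) at -0.18. Its relative *Arrdc4* was at -0.30 from a dim probe. *Epas1* was lower by -0.70 from an intensity of 31.7. *Prkaa2*, a catalytic subunit of the energy sensor AMPK, was higher, with 743 and 1029 on its brighter probe (0.61), and *Prkaa1* was at 0.08. Of 19 such regulators 18 were measured, 8 higher and 10 lower, with a median of -0.03. Among 15 targets of hypoxia-inducible factors outside glycolysis, 12 were higher, with a median of 0.24, led by *Adm* of adrenomedullin (1933 and 3101, 0.87) and *Ankrd37* (743 and 927, 0.51). Of all measured genes 54.2% were higher, and of the brightest 25% of genes 72.5%. Several of these targets are bright, such as *Ndrg1* (64706 and 68585) and *Lox* (35932 and 34215), so the count does not set them apart. The median of the 15 targets was 0.11 after quantile normalization or cyclic loess and 0.05 with spike-in probes, where 9 were higher.

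The side paths of glucose use held a few larger values. Of 9 genes of the pentose phosphate pathway, which makes NADPH and ribose, 7 were higher, where 54.2% of all measured genes were. The median of these 9 was 0.14, which was -0.05 under spike-in scaling, with 4 of 9 higher. *Taldo1* of transaldolase was the highest, with 34395 and 47706 on its brightest probe and a log2 fold change of 0.74 (0.67 and 0.81 by probe). *Tigar*, whose enzyme diverts glucose into this pathway, was at 0.31, and *H6pd*, the hexose phosphate dehydrogenase of the endoplasmic reticulum, was lower (2158 and 1386, -0.45). Of 19 genes of glycogen metabolism 17 were measured, 9 higher and 8 lower, with a median of 0.01. Among these, *Pgm2* (9663 and 11396, 0.43) and *Gbe1*, the branching enzyme (0.38 over 3 probes), were at the upper end and *Phkb* of phosphorylase kinase (-0.32) at the lower. Of 29 other genes of glycolysis and pyruvate use, 18 were measured on both arrays, 10 higher and 8 lower. Of 6 genes of gluconeogenesis 3 were measured, with a median of -0.02.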

How the data were processed

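RNA of 2 MCM cultures was measured on 2 arrays, grouped by the labels. The authors deposited, per the file headers, spot intensity from Agilent Feature Extraction 10.7.1.1, corrected for background and not normalized between arrays, and log2 values whose normalization is not stated; the deposited log2 values matched a quantile normalization (median absolute difference 1.33e-06).

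From the intensities, log2 values were taken without control spots and outlier spots (126 and 95), spots of a probe were averaged, and the 75th percentile was subtracted (R 4.3.3, limma 3.58.1, Python 3.11.15). A gene's value was the mean over its probes well above background on both arrays (over a share of 0.5 of its spots). A gene above background on 1 array was bounded by the lowest such signal, 14.9 and 13.5. Spots of repeated probes had a median SD of the log2 ratio of 0.036 over 293 probes (0.19 under an intensity of 100). The 39 genes had 92 probes, of which 68 match RefSeq transcripts of the same symbol, 76 were above background on both arrays and 11 cross an exon junction. Bases shared with probes of other genes (30 in a row) were found for 2 of 7 probes of *Gapdh*, 1 of 3 of *Eno1* and 1 of 5 of *Hk1*, so these are uncertain; without them the values were 0.18, 0.26 and 0.06. Probe positions are of mm9; exons and UTRs were not annotated here.

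No test was run; a t-test named in the methods cannot be computed with 1 array per condition. The calculation was tested on simulated data. The genes and lists were chosen with earlier results of these data known. Each measured gene is named, and of other lists those past 1.5-fold and the ends of the range, with further ones chosen after their values were seen. The 11 alternatives were 5 scalings (normexp background correction among them), the authors' values, 3 filters, the probe of highest signal and RefSeq probes alone. The last was added after the data were seen. Counting bounds was tried apart from these 11.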

Additional observations from a re-analysis of the deposited data

How the results depend on the processing

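The number of arrays, 1 per condition, limits the precision of all values, and signal near background limits *Slc2a4*, *Hk3*, *Pklr* and the dim probes of *Pfkp*, *Aldoc* and *Pdha1*. The median log2 fold change of the 37 genes, 0.08, was -0.10 under spike-in scaling, where the median of all genes was -0.16. It was 0.0251 with quantile normalization and with the authors' values, 0.0217 after cyclic loess, 0.15 with no filter and 0.15 with RefSeq probes alone. The 2 genes at least 2-fold lower were 0 after normexp correction, and 1 with no filter, with the stricter filter and with the probe of highest signal. The 1 gene at least 1.5-fold higher was 0 after normexp correction and 2 with no filter. The 2 genes at least 1.5-fold lower were 1 after normexp correction and 4 under spike-in scaling. The other counts stayed within 1.5 times. Over all genes, 180 were 2-fold higher and 215 lower; spike-in scaling gave 108 and 419, normexp 56 and 43, no filter 957 and 1115, the stricter filter 97 and 115. Of the 37 genes, 22 kept 1 sign in each of the 11 alternatives that gave them a value, 12 higher and 10 lower. Of the single genes' values under alternatives, 259 moved by less than the SD between spots and 146 by more, and no gene past 1.5-fold changed sign. No paired analysis was possible because there is 1 array per condition. The cause of these changes was not tested.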

Other observations

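Genes of the fuels left to cells without glucose were, as a group, also near the control level. Of 21 genes of glutamine and fatty acid use, 20 were measured on both arrays, 11 higher and 9 lower, with a median log2 fold change of 0.02. *Fabp3*, the fatty acid binding protein of heart, was the highest (1387 and 1790 on its brighter probe, 0.56), followed by *Bdh1*, which oxidises ketone bodies (0.37). *Cpt1a*, which admits fatty acids to mitochondria, was the lowest (6742 and 4674, -0.34), and *Cpt1b*, the muscle isoform, was at -0.18. *Cd36*, the fatty acid transporter of heart, was at background on both arrays (3.63 and 2.77).

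Common reference genes other than *Gapdh* spanned a range as wide as most glycolytic enzymes. Of 13, 9 were higher and 4 lower, where 54.2% of all measured genes were higher. The median of the 13 was 0.14, which was 0.04 after quantile normalization and -0.04 under spike-in scaling. *Tfrc* was at 0.38, *Eef1a1* at 0.24, *Rplp0* at 0.23, *Ppia* at 0.20, *Actb* at 0.05 and *B2m* at -0.10.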
